A study of Drosophila melanogaster with 8 samples.

Results

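Esterase 6 and its paralog are the genes Est-6 (FBgn0000592) and Est-P (FBgn0000594), which lie side by side on chromosome arm 3L of Drosophila melanogaster. They were taken by symbol from a table of 14701 gene IDs, in which each of the 2 genes stood on 1 row. RNA was sequenced from adult females of 2 laboratory strains, Dahomey and Oregon R, in 4 libraries of 60 flies each for either strain. All flies were mated females aged 10 days and kept at 25 °C, heads and thoraxes were pooled without abdomens, and no gene was altered in either strain. The data were the authors' own comparison of the strains, with 1 mean over all libraries, 1 log2 fold change, its standard error (SE) and an adjusted p per row. No value of a single library was used, so each strain's spread is known only through the SE. A positive fold change is taken to mean higher in Dahomey, because the table's name puts that strain first. No header states the sign, and if the order were the other way all directions below would switch.

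Est-6 encodes a secreted carboxylesterase, an enzyme that splits carboxylic ester bonds. It is best known from males, which make it in the ejaculatory duct and pass it to females with the seminal fluid. It is also present in both sexes, among other places in the antenna, where it degrades odorant esters, including the pheromone cis-vaccenyl acetate. Est-P arose by tandem duplication within the same cluster, the beta-esterases. Its function is less clear, and some of its natural alleles carry premature stop codons, which is why psiEst-6 is among its older names.

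The annotation of assembly BDGP6 places both genes on the plus strand, Est-6 first, with 27 bases between the end of Est-6 and the start of Est-P. Their coding sequences have the same plan. Each has 2 coding exons, of 1387 and 245 bases, which together encode 544 residues, and the introns between them measure 51 bases in Est-6 and 56 bases in Est-P. Of the 30 other carboxylesterase family genes compared here, 0 have a coding length equal to theirs and 2, Glt and Nrt, have 2 coding exons in their longest coding transcript. Proteins of these 30 genes range from 541 to 1437 residues.

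Another gene shares the ground of Est-P. The gene thoc6, which encodes a subunit of the THO complex of messenger RNA export, runs on the minus strand, and its exons cover 1697 of the 1740 exon bases of Est-P, or 97.5%. They cover 10 of the 1837 exon bases of Est-6. This overlap depends on the transcript: of the 3 annotated thoc6 transcripts, 1 covers 96.0% of Est-P, and the others cover 21.4% and 3.51%. The library kit named in the labels does not mark strand, and the sources used here do not say how the authors' counting treated overlapping genes or reads that match both paralogs. Reads of Est-P and thoc6 from the shared bases cannot be told apart without strand, so the levels of both carry this uncertainty. The authors used genome build BDGP5. Whether the thoc6 transcript that covers most of Est-P was in the annotation behind their counts is not known.

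**Figure D1:**
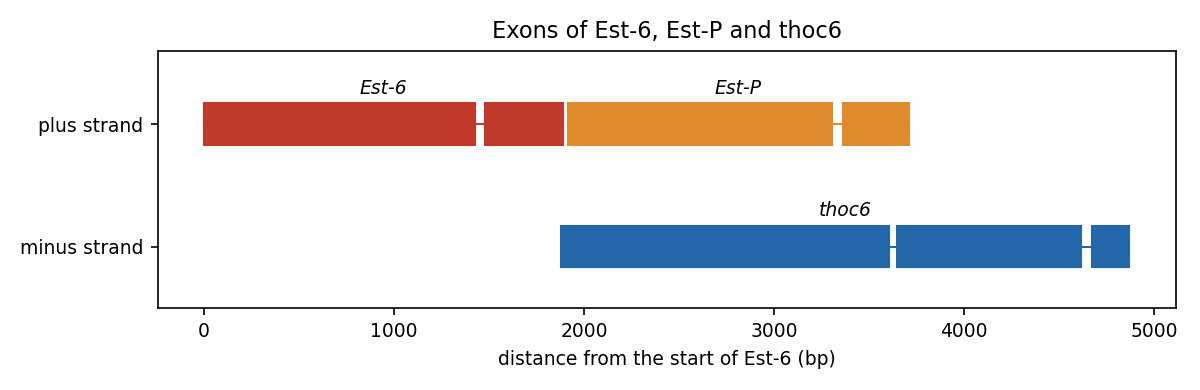
Exons of Est-6 and Est-P on the plus strand and of thoc6 on the minus strand, as boxes along the distance from the start of Est-6 in base pairs; for each gene the exons of all its transcripts are merged. Est-P starts 27 bases after Est-6 ends, and thoc6 exons lie opposite 97.5% of its exon bases.

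Est-6 was among the more abundant transcripts, and Est-P was scarce. The authors' deposited table gave Est-6 a mean of 43316 normalized reads over all libraries, which is 385 CPM when scaled to the summed means of all genes. Divided by exon length, this was 23580 normalized reads per kilobase, and 2.69% of the other genes with a p-value had a higher value. Est-P had a mean of 236 normalized reads in the authors' deposited table, or 136 per kilobase, and 67.9% of the other genes with a p-value had a higher value per kilobase. Per kilobase, the mean of Est-6 was 174 times that of Est-P.

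By the authors' normalized reads, Est-P was about 10 times as high in Dahomey as in Oregon R. In the authors' deposited table its log2 fold change was 3.36 ± 0.17 (SE), a 10.3-fold difference with a 95% interval of 8.12 to 13.0 from the SE. Of 13065 genes with a p-value, 36 had a larger absolute fold change and 20 had a larger fold change toward Dahomey. The SE was 1.02 times the median SE of the 975 genes whose mean lay within 2-fold of that of Est-P, so its error was close to that of other genes at this level. The part in this ratio of reads that match both paralogs, or that are shared with thoc6, was not tested.

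Est-6 was higher in Dahomey by a much smaller margin. The log2 fold change in the authors' deposited table was 0.28 ± 0.11 (SE), a 1.22-fold difference with a 95% interval of 1.05 to 1.40 from the SE. Its fold change was 2.69 times its SE, against 19.3 times for Est-P. Among the other genes with a p-value, 31.9% had a larger absolute fold change. The SE of Est-6 was 1.41 times the median of the 605 genes with a mean within 2-fold of its own.

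Both genes are listed as higher in Dahomey at an adjusted p under 0.05, with 0.0272 for Est-6 and 2.42e-80 for Est-P in the authors' deposited table, so that Est-6 would not pass at 0.01. Over the whole table, 29.5% of genes with a p-value passed this threshold, with 14.8% higher in Dahomey and 14.7% lower. Est-6 and Est-P were chosen by their log2 fold changes and calls in this same comparison, so their values are a description and no test of them was added. The log2 fold change of Est-P exceeded that of Est-6 by 3.08. Because the RNA came from whole heads and thoraxes, a larger number of expressing cells and more RNA per cell cannot be told apart.

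The table allows an estimate of each strain's level. If the mean weights the 4 libraries of each strain equally and the fold change is taken as it stands, Est-P averaged 430.1 normalized reads in Dahomey and 41.8 in Oregon R. Est-6 averaged 47554 normalized reads in Dahomey and 39079 in Oregon R on the same arithmetic. The difference in normalized reads was therefore larger for Est-6, at 8475, than for Est-P, at 388, although the ratio was far larger for Est-P. Est-P made up 0.896% of the reads of both genes together in Dahomey and 0.107% in Oregon R. The overlapping gene thoc6 averaged 873 normalized reads in Dahomey and 818 in Oregon R by this estimate, a difference of 55.0. Its log2 fold change in the authors' deposited table was 0.09 ± 0.11 (adjusted p = 0.609).

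**Figure D2:**
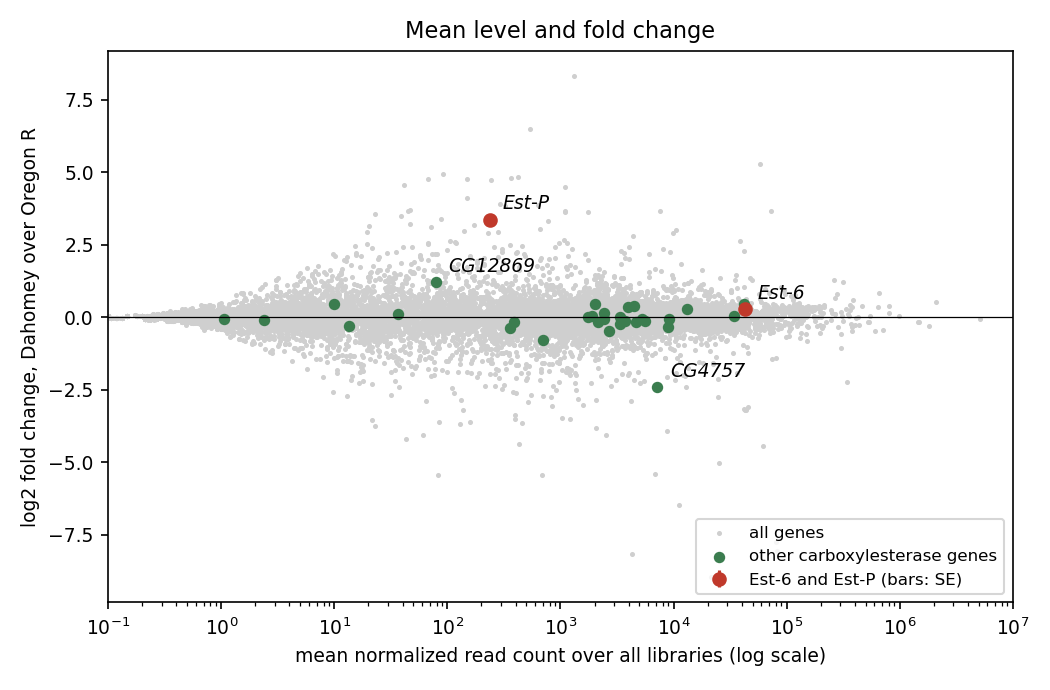
Log2 fold change of Dahomey over Oregon R against the mean normalized read count over all libraries, on a log axis, for all genes (grey), for the other carboxylesterase genes (green) and for Est-6 and Est-P (red, with SE bars that are smaller than the points in places). Est-P stands at 3.36 with a mean of 236, and Est-6 stands at 0.28 with a mean of 43316.

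Among the 32 carboxylesterase family genes, which include digestive and detoxifying enzymes and relatives that have lost the enzyme activity, Est-6 had the highest level per kilobase and Est-P the largest fold change. Est-6 was followed in level by alpha-Est7, whose blowfly counterpart gives resistance to organophosphate insecticides, with 16997 normalized reads per kilobase. Glt, which encodes the basement membrane protein glutactin, came after it with 12502. Est-P ranked 26 of 32 by the same measure. The spread of the level itself is not in the table, so whether neighbours in this order differ is not known. By reads, Est-6 made up an estimated 22.0% of the family's summed level in Dahomey and 19.2% in Oregon R.

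The family as a whole differed between strains about as often as other genes. Of the 30 genes other than Est-6 and Est-P, 28 had a p-value, of which 5 rose in Dahomey, 4 fell and 19 did not pass. This is 32.1% of them, beside 29.5% of all genes, and their median log2 fold change was -0.06, beside -0.01 for all genes. The median absolute log2 fold change was 0.17 in the family without Est-6 and Est-P and 0.17 over all genes.

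The genes that rose in Dahomey besides Est-6 and Est-P had modest fold changes, with 1 exception. CG12869, known by its annotation number, had a log2 fold change of 1.21 ± 0.21 from a mean of 79.1 normalized reads in the authors' deposited table. The basement membrane gene Glt had 0.45 ± 0.091, and clt had 0.46 ± 0.069 in the authors' deposited table. Gli, which encodes gliotactin of the junctions where 3 epithelial cells meet, had 0.34 ± 0.080 there. All 4 adjusted p-values in the authors' deposited table, from DESeq2, were between 3.38e-10 and 1.76e-04. Glt was nearly as abundant as Est-6 by reads, at 42169 against 43316 in the authors' deposited table, and its fold change was somewhat larger.

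The alpha-esterases, a cluster of 10 genes on arm 3R that includes enzymes of insecticide resistance and lipid metabolism, split in direction. In that cluster 1 gene rose in Dahomey, 3 fell and 6 did not pass, and all 10 log2 fold changes lay between -0.49 and 0.40. These are 4 of 10, beside 29.5% of all genes (14.8% higher and 14.7% lower). The authors' deposited table gave alpha-Est2 0.40 ± 0.099, against -0.49 ± 0.077 for alpha-Est10, -0.34 ± 0.12 for alpha-Est8 and -0.14 ± 0.046 for alpha-Est3. The abundant alpha-Est7 had 0.06 ± 0.099 and alpha-Est9 had 0.29 ± 0.13 in the authors' deposited table, and neither passed. The log2 fold change of alpha-Est9 was nearly that of Est-6, its SE was larger, at 0.13 against 0.11, and its adjusted p was 0.0829.

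CG4757 had the largest difference toward Oregon R in the family. Its log2 fold change in the authors' deposited table was -2.42 ± 0.094, which is 5.34-fold lower in Dahomey, from a mean of 7183 normalized reads (adjusted p = 3.99e-143). Ace, which encodes the acetylcholinesterase of synapses, did not pass, with -0.06 ± 0.070 in the authors' deposited table. The juvenile hormone esterase gene Jhe and its tandem copy Jhedup, an antennal esterase gene, had no p-value and stood at -0.80 ± 0.37 and 0.02 ± 0.39 in the authors' deposited table.

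**Figure D3:**
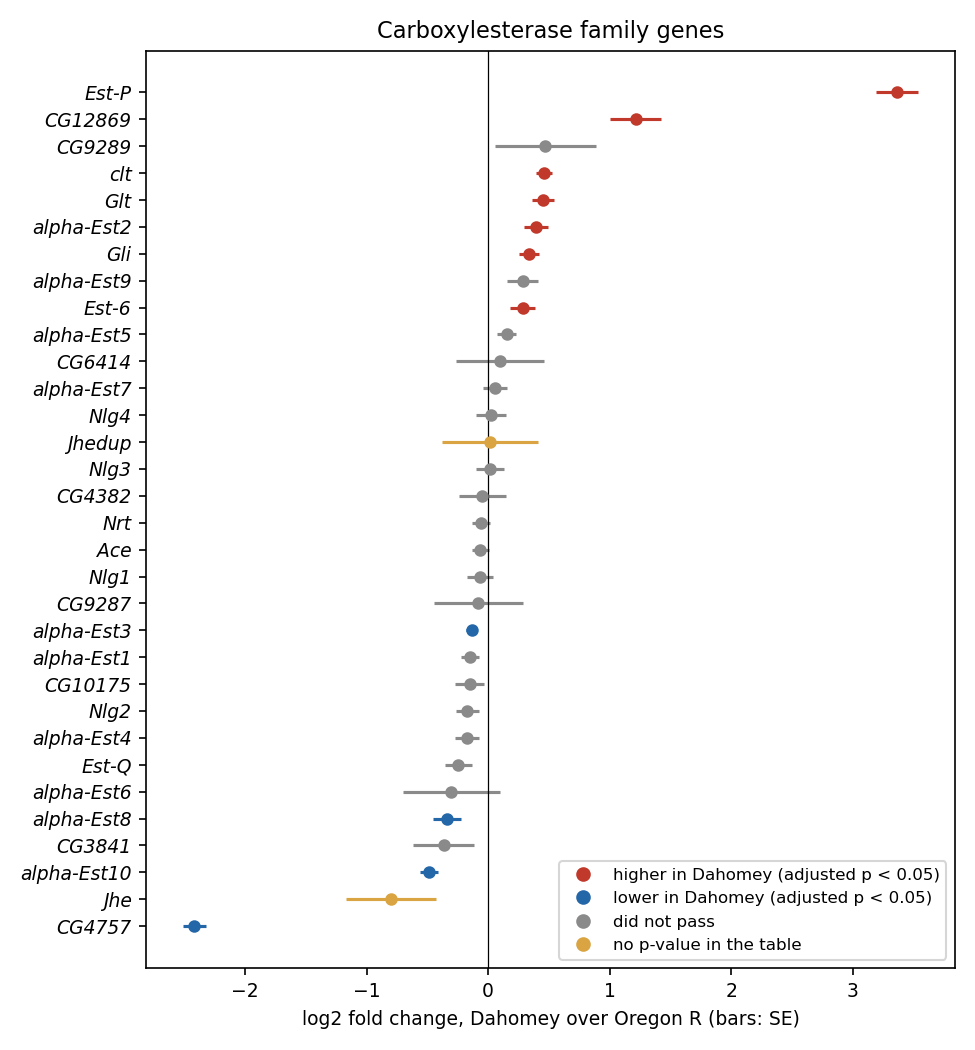
Log2 fold change of Dahomey over Oregon R with SE bars for the 32 carboxylesterase family genes, ordered by fold change from the highest at the top and coloured by the authors' call. Est-P is at the top at 3.36, CG4757 at the bottom at -2.42, and Est-6 lies near the middle of the genes above 0 at 0.28.

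Genes around the pair differed in both directions, and none of the 20 examined came near the fold change of Est-P. Of the 20 nearest genes with a p-value, 10 on each side, 5 rose in Dahomey, 6 fell and 9 did not pass. This is 55.0% of them, beside 29.6% of genes on arm 3L and 36.9% of all genes with a mean of at least 100 normalized reads, a level that all 20 reach. Their median absolute log2 fold change was 0.18, beside 0.17 over all genes, and their fold changes ran from -0.81 to 1.16. The farthest of them lay 98.4 kilobases from the pair.

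The gene that follows Est-P had the highest fold change of these neighbours. CG11529, on the same strand with its start 5.26 kilobases past the end of Est-P, had a log2 fold change of 1.16 ± 0.16 and a mean of 332 normalized reads in the authors' deposited table, a 2.24-fold difference (adjusted p = 6.36e-12). The next genes along the arm went both ways. Ak1, an adenylate kinase gene, had -0.43 ± 0.064, and Tsen54, which encodes a subunit of the tRNA splicing endonuclease, had -0.81 ± 0.18 in the authors' deposited table. The gene app, which encodes a palmitoyltransferase of growth control, had 0.12 ± 0.046 there.

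On the other side, Miox, an inositol oxygenase gene, lies next to Est-6 and had no p-value, with 0.09 ± 0.16 from a mean of 48584 normalized reads in the authors' deposited table. The carbonic anhydrase gene CAH2 fell in Dahomey, at -0.48 ± 0.078 there (adjusted p = 6.88e-09), and the rhodopsin gene Rh7 had 0.11 ± 0.095 and did not pass. Farther out, the authors' deposited table had CG5645 at 0.50 ± 0.12, CG9760 at 0.33 ± 0.13 and the haem synthesis gene Pbgs at 0.51 ± 0.074 among the genes that rose. Those that fell were the complex I gene ND-SGDH at -0.20 ± 0.059, the translation factor gene eIF3l at -0.19 ± 0.053 and the spermine synthase gene Sms at -0.21 ± 0.060 in the authors' deposited table.

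**Figure D4:**
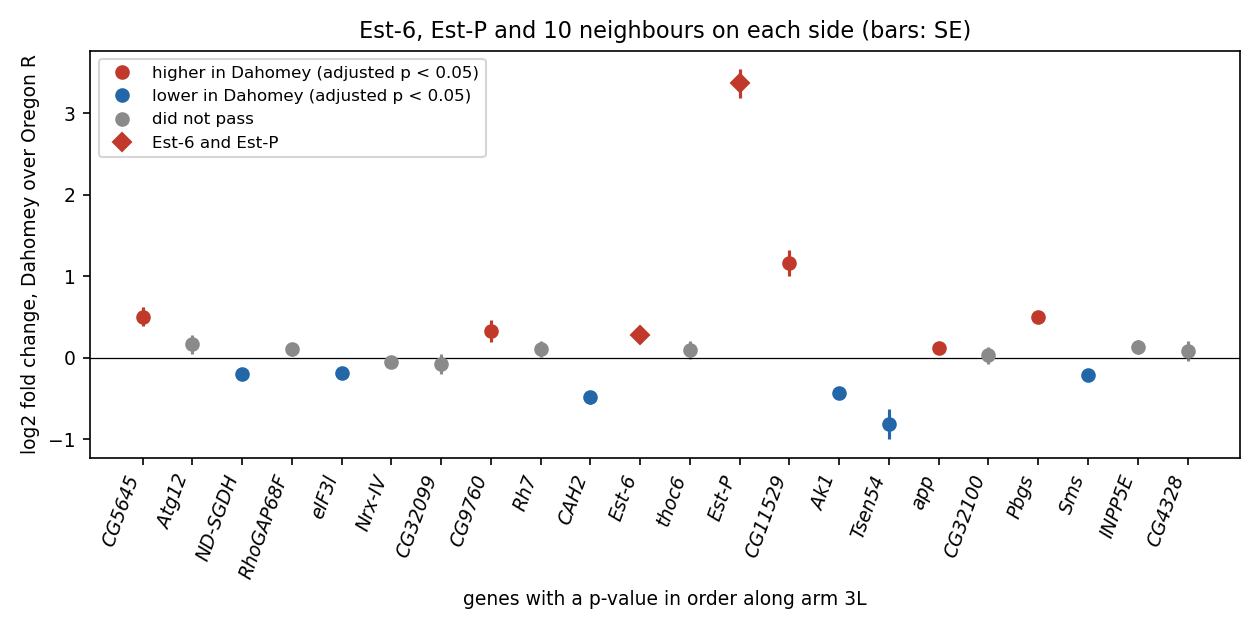
Log2 fold change of Dahomey over Oregon R with SE bars for Est-6 and Est-P (diamonds) and the 10 nearest genes with a p-value on each side, in order of their starts along arm 3L and coloured by the authors' call. Est-P at 3.36 is far above the neighbours, of which CG11529 is highest at 1.16 and Tsen54 lowest at -0.81.

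Since Est-6 is known from the male duct, genes of the male reproductive tract were read for their level. The list of 22 genes for accessory gland and ejaculatory duct holds mostly accessory gland genes, with the ejaculatory bulb genes Ebp and EbpII. It therefore says little of the duct by itself. Of the 22 genes, 19 had a mean under 10 normalized reads, and Acp29AB and EbpII were listed at 0. The means of all 22 summed to 232, beside 43316 for Est-6 alone. Their summed level was estimated at 237 in Dahomey and 227 in Oregon R. The most abundant were Acp95EF with a mean of 129 and Acp63F with 50.0 in the authors' deposited table. Of 20 with a p-value, 2 rose in Dahomey, and these, Acp24A4 and Acp53C14c, had means of 6.70 and 5.24; that is 10.0%, beside 29.5% of all genes in either direction and 14.8% higher. The 13 testis genes summed to 214 normalized reads, led by S-Lap1 with 111 and betaTub85D with 46.2, and 10 of them had a mean under 10. In the DESeq2 test 0 of 13 passed at the adjusted p or at an unadjusted p under 0.05. Because the libraries were of females without abdomens and most of these means were so low, the counts that passed in both lists say little of the strains.

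The tissue in which Est-6 acts on odorants is also in the samples. Genes for sensing acetate esters and clearing odorants gave 3 that rose in Dahomey, 0 that fell and 7 that did not pass, of 10 with a p-value, and their median log2 fold change was 0.05, beside -0.01 for all genes. At an unadjusted p under 0.05 in the authors' DESeq2 test the number that fell was also 0. The share that passed, 30.0%, was near the 29.5% of all genes. Or67d, the receptor for cis-vaccenyl acetate, had 1.28 ± 0.37 from a mean of only 41.9 normalized reads in the authors' deposited table (adjusted p = 0.00312). The ester receptor gene Or43b had 0.31 ± 0.10 and the membrane protein gene Snmp2 had 0.43 ± 0.088 there. Ugt35B1, a glycosyltransferase gene, had no p-value and stood at -0.08 ± 0.15 in the authors' deposited table.

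The SE of Est-6 was below those of the antenna markers. Of the 17 genes for ester sensing and odorant clearance, 7 had a fold change without a p-value, and of 10 antenna marker genes 9 had none, beside 6.40% of all rows with a fold change; 5 genes without a p-value are in both lists. The antennal receptor gene Or43b, which is not in the marker list, had an SE of 0.10 in the authors' deposited table, close to that of Est-6. SE of the antenna markers ran from 0.17 to 0.42 with a median of 0.41, against 0.11 for Est-6 and 0.17 for Est-P, in the authors' deposited table. Obp19d and Obp83a were the most abundant of them, at -0.42 ± 0.17 and 0.15 ± 0.42 there. The summed level of all 10 antenna markers was estimated at 76127 in Dahomey and 93861 in Oregon R. Most of it was Obp19d, and the other 9 summed to 16696 in Dahomey and 14384 in Oregon R, the opposite order, a split made after the values were seen. The part of antennal RNA in the values of Est-6 was not tested.

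**Figure D5:**
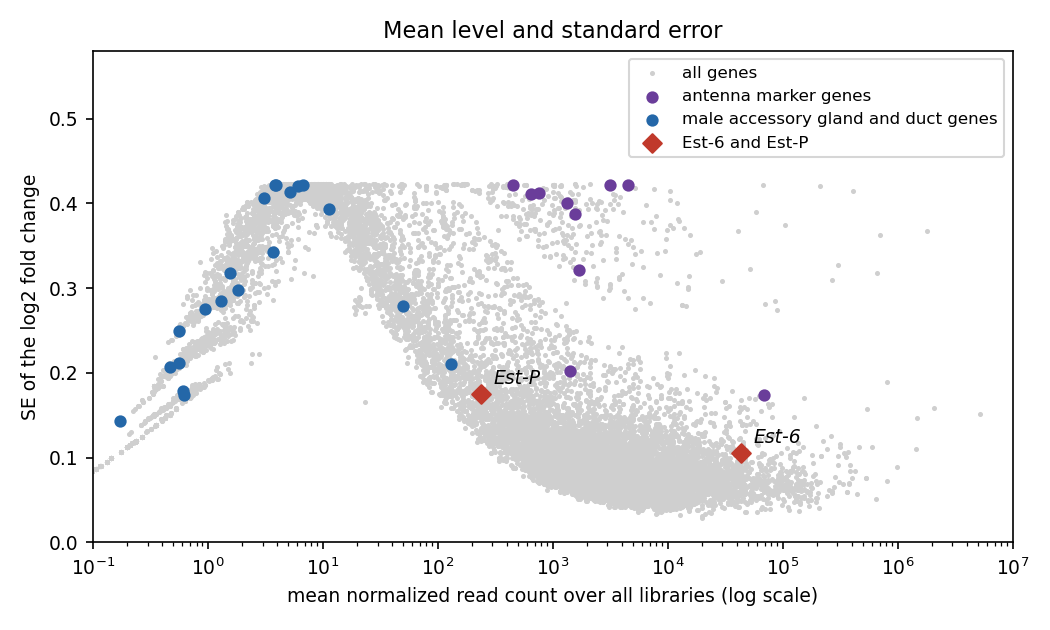
SE of the log2 fold change against the mean normalized read count over all libraries, on a log axis, for all genes (grey), antenna markers (purple), male accessory gland and duct genes (blue) and Est-6 and Est-P (red diamonds). Est-6 and Est-P lie within the main band of genes, at 0.11 and 0.17, most antenna markers lie far above it, and most male genes lie at means under 10.

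Markers of eye, flight muscle, fat body and blood cells were read as well, and further tissues of head and thorax were not examined. The eye markers, led by ninaE and Arr2, had means of at least 18366 normalized reads, and the flight muscle markers, led by Mhc and bt, of at least 14362. Of the eye markers 3 rose in Dahomey and 5 fell, of 13, and of the flight muscle markers 6 rose and 2 fell, of 11 with a p-value. These are 61.5% and 72.7% of them, beside 29.5% of all genes and 36.9% of genes with a mean of at least 100. Both lists lie far above a mean of 100, so these backgrounds are not matched to them in level. Fat body markers, led by Yp1 and Yp3, gave 4 that rose and 0 that fell of 5 with a p-value in the authors' DESeq2 test (also 0 at an unadjusted p under 0.05), or 80.0% past the threshold. The other 5 had no p-value, and 3 of them were below 0 in the authors' deposited table, with Lsp2 at -1.91 ± 0.39, Lsd-1 at -0.33 ± 0.17 and Yp3 at -0.16 ± 0.15. Over all 10 fat body markers, with the 5 that had no p-value, the summed level was estimated at 5743504 in Dahomey and 4712589 in Oregon R. The largest part was Yp1, at 2464547 in Dahomey and 1720725 in Oregon R. Yp3 came next in the opposite order, at 1393224 and 1557748, and Yp2 followed at 921399 and 705934. Blood cell markers, led by Col4a1 and Hml, gave 1 that rose and 2 that fell of the 8 found out of 9 listed, or 37.5% of those found. All 13 ovarian follicle cell genes had no p-value, though Cp38 and Cp15 had means of 6166 and 3704 normalized reads in libraries from which abdomens were left out. The part of these tissues in the values of Est-6 and Est-P was not tested. Nor was the part of ovarian follicle cells in the levels of Yp1, Yp2 and Yp3, so the fat body sum may not be of fat body alone.

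Genes of like level and fold change were found readily for Est-6 and not for Est-P. This follows from the fold changes by which the 2 genes were chosen and is no separate finding. Among genes with a mean within 2-fold, 29.1% had a larger absolute fold change than Est-6, and 0.923% a larger one than Est-P. Likeness was the absolute difference in log2 fold change, over this 1 comparison, among named genes with a mean within 2-fold. The nearest to Est-6 were Bbd, the ribosomal protein gene RpS21 and the protease gene teq, with differences of 0.0026, 0.0035 and 0.0042. For Est-P the nearest were lncRNA:CR13130, Pgcl and Osi2, with log2 fold changes of 2.95 ± 0.15, 2.90 ± 0.32 and 4.12 ± 0.27 in the authors' deposited table and differences of 0.41, 0.47 and 0.75.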

How the data were processed

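RNA of heads and thoraxes was measured in 4 Dahomey and 4 Oregon R libraries, grouped by their titles. The authors used TopHat2 2.0.7, DESeq2, FastQC and bcl2fastq and genome build BDGP5, per the submitters' processing notes. The counting program was not given in the sources used here. As deposited, the table holds a mean signal in normalized read counts, a log2 fold change with its SE, and a p-value with an adjusted p-value, as named per the file headers. None of its columns gives the reason why 916 rows with a fold change have no p-value. Fold changes of such genes, and summed levels that include them, carry this uncertainty. The authors' fold changes may be shrunken and so understated, at low counts and at some higher ones, and their SE with them. Acp33A, with a mean of 0.17 normalized reads, had an SE of only 0.14 in the authors' deposited table. Obp83a and Cp18, with means of 4514 and 1853, both had 0.42, close to the largest SE in the lists read here. The submitters stated 90000000 reads per sample. Depth per library is unknown, and the labels do not say whether libraries stem from separate cultures, so the spread behind the p-values may be technical.

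From the table, the row of highest mean was kept for each gene ID, and genes with a mean of at least 10 that share all values were counted as 1, which left 13065 genes with a p-value. Calls used the authors' adjusted p under 0.05; no new test was fitted. CPM scales each mean to the total of the means. Gene order, strand and exon lengths came from an annotation of BDGP6, so no coordinates are given. The step that adjusts p-values was tested on simulated data. Members and lists were chosen with earlier results of these data known. Genes were named by rule: all carboxylesterases that passed and the 3 most abundant that did not, all neighbours that passed and the nearest ones, up to 4 ester sensing genes that passed with the 2 most abundant, the 2 most abundant of each marker list, and the 3 genes most like each of Est-6 and Est-P. Miox, Jhe, Jhedup, Lsp2, Lsd-1 and the male genes named beyond that rule were singled out after their values were seen, as was the comparison with genes of a mean of at least 100. Alternatives were another adjusted p or fold minimum, a minimum mean, another adjustment, another row per ID, other numbers of neighbours, centring, and ranking among genes of like mean. Python 3.11.15, numpy 2.4.6, pandas 2.3.3, scipy 1.17.1 and matplotlib 3.10.9 were used.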

Additional observations from a re-analysis of the deposited data

How the results depend on the processing

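Each count of genes that passed stayed within 1.5 times its value with a stricter threshold of 0.01, a minimum mean of 10, a fresh Benjamini-Hochberg adjustment or the row of the lowest mean per gene ID. The threshold of 0.01 ended the call of Est-6, whose adjusted p was 0.0272, and took the carboxylesterase count to 8 from 11. Requiring an absolute log2 fold change of at least 1 left 3 of the 11 carboxylesterase genes (Est-P among them, Est-6 not), 1 of the 3 ester sensing genes and 1 of the 11 neighbours. With 5 neighbours on each side 6 of 10 passed, and with 20 on each side 18 of 40. Centring on the median of all genes or of arm 3L moved the fold changes of Est-6 and Est-P by less than their SE. Among genes with a mean within 2-fold, 29.1% had a larger absolute fold change than Est-6, against 31.9% of all genes, and 0.923% a larger one than Est-P, against 0.276%. Alternatives that need protein sequences (identity of Est-6 and Est-P, and a family drawn by similarity) were not run. No paired analysis was possible because no column holds a single library, and for the same reason no library could be left out. With 1 SE per gene, an effect of 1 library on Est-6 could not be checked.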

Other observations

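Genes placed like Est-P, under the exons of a gene on the other strand, are few. Of 12845 genes with a p-value and a place in the annotation, 115 other than Est-6 and Est-P had at least 90% of their exon bases opposite exons of the other strand, and 48 of them, or 41.7%, passed the adjusted p under 0.05 in the authors' deposited table, beside 29.5% of all genes. The mean of thoc6 was 3.58 times that of Est-P.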
